A study of Oryza sativa with 12 samples.

Results

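The NAC and MYB stress factors described here are 8 rice genes for transcription factors, OsNAC2, OsNAC3, OsNAC4, OsNAC7, NAC45, MYBAS1, OsMPH1 and myb17. They were found on the array by symbol or synonym, each name matched 1 gene, and they lie on 9 probe sets of the 57258 that are not array controls (8 of 17905 annotated genes). The genes were chosen by name, with the measured arsenate changes and variety differences of these same arrays already known, so the changes of the 8 genes are given as a description and support nothing beyond it. RNA was taken from roots of 2 rice varieties after 7 days in hydroponic solution, and the 4 groups were Bala with 1 ppm (13.3 uM) arsenate, Bala without arsenate, Azucena with 1 ppm arsenate and Azucena without arsenate. Each group had 3 arrays, 1 from each of 3 experiments grown at different times, and each sample pooled the roots of 4 plants of 1 pot. Of the varieties, Bala tolerates arsenate better than Azucena does, and the comparisons ask how root transcripts answer to arsenate in each.

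NAC proteins are plant transcription factors that bind DNA through a conserved domain at their start and act on transcription through a variable end, and MYB proteins bind DNA through 1 or more MYB repeats. Members of both families are known in rice for responses to drought, salt, abscisic acid and pathogens, and others act in growth and in the making of cell walls. Of the 8 genes, NAC45 (also ONAC045) is known to raise drought and salt tolerance when overexpressed, OsNAC3 (ONAC067) for abscisic acid and salt responses, and OsNAC4 (ONAC068) as a promoter of hypersensitive cell death in defence. OsNAC2 (ONAC004, also annotated OsTIL1) is known from tillering, plant height and leaf senescence, and OsNAC7 (ONAC076) gave its name to the subgroup that in Arabidopsis holds the factors of water-conducting vessel cells. OsMPH1 (OsMYB45) promotes plant height, and MYBAS1 and myb17 (also annotated MYBAS2) are a related pair of MYB genes known for alternatively spliced transcripts. RefSeq lists 4 transcripts for MYBAS1, 5 for myb17, 2 for OsNAC2 and 1 for each of the other members, and 1 probe set per gene does not part them. By RefSeq, NAC45 and MYBAS1 lie on chromosome 11, OsNAC7 and OsMPH1 on chromosome 6, OsNAC4 on chromosome 1, OsNAC2 on 4, OsNAC3 on 7 and myb17 on 12.

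Values are MAS5 signals, a linear intensity that sums up the probes of a probe set. The median signal of an array was between 7.3 and 10.3, and the number of arrays limits the precision. Log2 changes are arsenate minus control on log2(signal + 2.1) with the standard error of a limma fit to all 12 arrays with the experiment as a block. A change is said to pass where its p adjusted over all 28461 probe sets tested was below 0.05, and shares of all genes refer to 15638 genes with 1 probe set each. All 8 genes passed the filter on low signals (mean above 9.4), each with 1 probe set, and the other probe set of OsNAC7 did not. Signals of different probe sets cannot be set against each other, so levels are compared within a gene. In RNA from whole roots, fewer cells of a type and less RNA per cell cannot be told apart.

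Some other measures moved with the groups. Of the listed markers of green tissue, 3 genes were on the array, and none was at 0 on all arrays. Their summed signal was 88.5 to 2890 in Bala arsenate, 794 to 2907 in Bala control, 56.2 to 81.2 in Azucena arsenate and 99.2 to 1830.5 in Azucena control. CAB2R, a chlorophyll-binding protein, read 164, 70 and 2252 on the Bala arsenate arrays and 729.9, 1313 and 2650 on the Bala controls. It read 57.6, 60.4 and 35.8 on the Azucena arsenate arrays and 69.5, 94.4 and 1647 on the Azucena controls, so Bala arsenate 3 and Azucena control 3 stood apart from the other arrays of their groups. The 8 root markers matched summed to 5000.5 to 10604 in Bala arsenate and 14507 to 18450 in Bala control. In Azucena they summed to 5456 to 8342 with arsenate and 16122 to 16898 without, and none was at 0. OsGRF4 matched only through the synonym PT2 and OsSUS2 through RSS1, which is also the name of another gene listed. The sums do not hold for each marker: RSS1 averaged 257 with arsenate and 173 without in Bala, and 259 and 155 in Azucena. For osysl15 these averages were 743 and 554 in Bala, and 50.1 and 98.9 in Azucena. For the actin control, the ratio of 3' to 5' signal, a reading of RNA integrity, was 6.82 to 8.59 in Bala arsenate, 2.54 to 3.66 in Bala control, 5.15 to 8.45 in Azucena arsenate and 2.24 to 6.87 in Azucena control. The same ratio of the GAPDH control was 3.53 to 3.79 in Bala arsenate, 1.43 to 2.17 in Bala control, 8.86 to 23.8 in Azucena arsenate and 7.58 to 8.60 in Azucena control, so it parted the varieties as well. That of the cyclophilin control was 2.08 to 2.90 in Bala arsenate and 1.88 to 2.44 in Bala control. In Azucena it was 2.46 to 3.23 with arsenate and 2.08 to 2.54 without. It thus overlapped between arsenate and control in each variety, and the controls did not move alike. The part of RNA quality and of green tissue in the changes below was not tested.

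**Figure D1:**
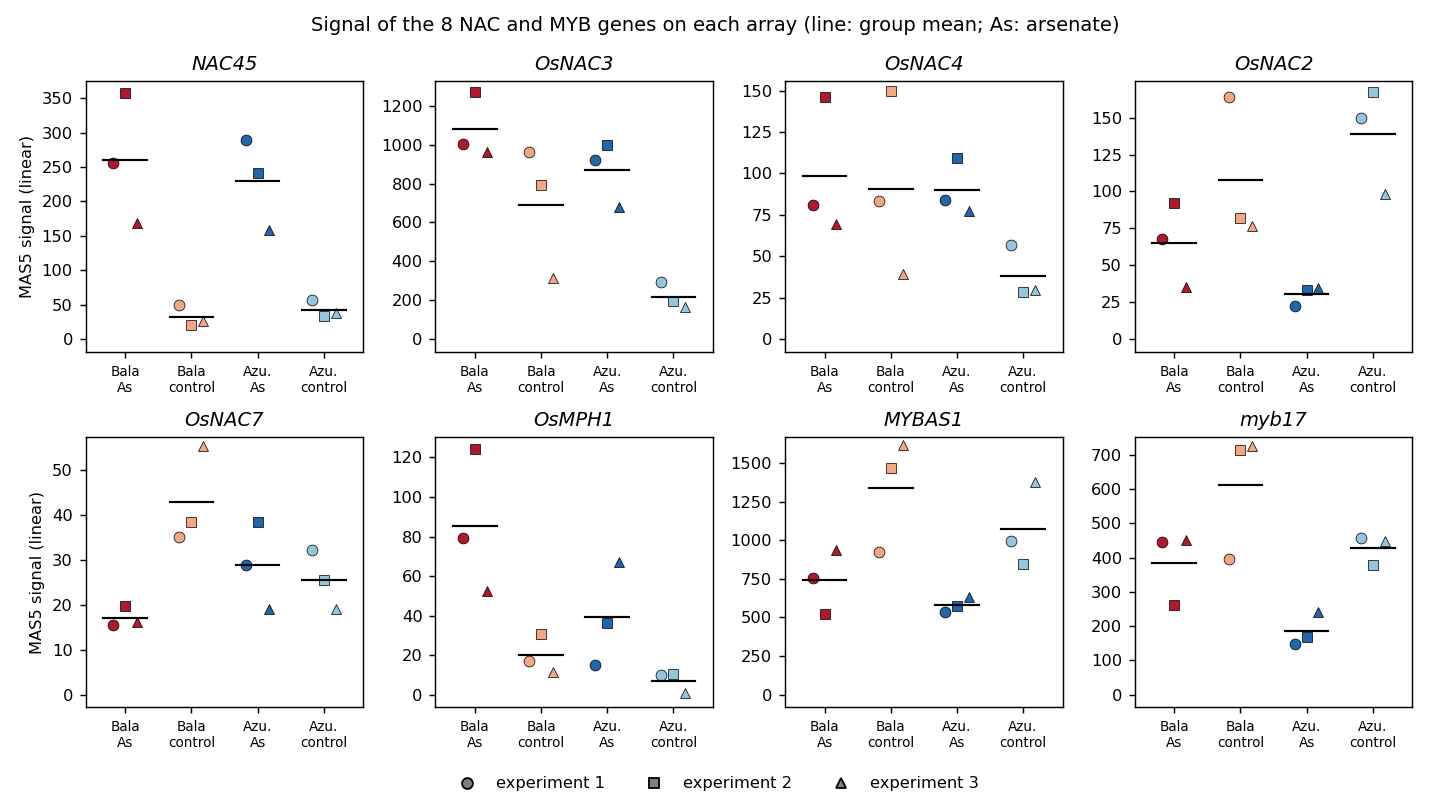
MAS5 signal (linear axis) of the 8 genes on each of the 12 arrays, in the order Bala arsenate, Bala control, Azucena arsenate and Azucena control, with 1 symbol per experiment and a line at the group mean. NAC45 reads 158.5 to 358 on the arsenate arrays and 20.2 to 56.1 on the controls of both varieties, while OsNAC3 reads 165 to 293 in Azucena controls and 316 on 1 Bala control array, against 681 or more on all other arrays.

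Under arsenate, NAC45 rose in both varieties, and of the other genes OsNAC3, OsNAC4 and OsMPH1 rose and OsNAC2, MYBAS1 and myb17 fell in Azucena, while OsNAC7 and MYBAS1 fell in Bala. In Bala, 1 of the 8 genes rose and 2 fell, against 6.98% of all genes tested that rose and 5.71% that fell. In Azucena, 4 of the 8 rose and 3 fell, against 12.4% and 10.3% of all genes. Nothing is read from these counts, since the 8 genes were chosen with these changes known. The median log2 change of the 8 was -0.21 in Bala and 0.69 in Azucena, against 0.08 and 0.14 over all genes tested.

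NAC45 had signals of 256, 358 and 168 in Bala arsenate, against 49.9, 20.2 and 26.5 in Bala control. In Azucena arsenate it read 289, 241 and 158.5, against 56.1, 33.5 and 38.1 in Azucena control. Every arsenate array lay above every control array, and the arrays of the varieties overlapped both with and without arsenate. The log2 change was 2.97 ± 0.31 in Bala and 2.36 ± 0.31 in Azucena, a 7.82-fold and a 5.15-fold rise. Within single experiments it was 2.31, 4.01 and 2.57 in Bala and 2.32, 2.77 and 2.0 in Azucena. Both calls held in all 12 fits that left out 1 array and in all 3 that left out 1 experiment. The highest arsenate array was that of experiment 2 in Bala and of experiment 1 in Azucena.

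OsNAC3 read 1004, 1273 and 961.5 in Bala arsenate, against 965, 795.5 and 316 in Bala control. In Azucena it read 923, 1001 and 681 with arsenate, against 293, 198 and 165 without. The Bala groups overlapped through control 1, and the Azucena groups did not overlap. The log2 change was 2.0 ± 0.29 in Azucena, a 4.01-fold rise, and it was 0.78 ± 0.29 in Bala, which did not pass. The Bala control was the higher of the 2 controls: OsNAC3 averaged 692 ± 337 in Bala control and 218.5 ± 66.5 in Azucena control (SD, n = 3 each), a log2 difference of 1.55 ± 0.29 that passed. With arsenate the averages were 1079 ± 169 in Bala and 868 ± 167 in Azucena, and these arrays overlapped. Bala control 3, at 316, was close to the highest Azucena control, and the control difference was 1.71, 1.99 and 0.93 in experiments 1, 2 and 3. The Azucena rise and the control difference held in all 12 fits without 1 array, with a limma adjusted p of up to 0.0165 and 0.0402. The Azucena rise did not pass without experiment 2 (limma adjusted p = 0.0731). The control difference did not pass without experiment 1 (limma adjusted p = 0.0537) or 2 (0.160).

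OsNAC4 had a pattern close to that of OsNAC3. Its signals were 80.7, 146 and 69.3 in Bala arsenate, against 83.2, 149.7 and 39.5 in Bala control, and the groups overlapped. In Azucena they were 83.8, 109 and 77.4 with arsenate, against 56.8, 28.3 and 29.8 without, with no overlap. In Azucena the log2 change of 1.24 ± 0.38 was a 2.37-fold rise, and that of 0.23 ± 0.38 in Bala did not pass. The Azucena call was near the threshold and held in 3 of 12 fits without 1 array, those without Bala control 2, Bala control 3 or Azucena control 1. Over the other 9, which left out any Bala arsenate or Azucena arsenate array, Bala control 1 or Azucena control 2 or 3, the limma adjusted p reached 0.163, and the smallest log2 change was 0.77, without Azucena control 2. Without the experiment as a block the limma adjusted p was 0.0789.

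OsNAC2 had the opposite direction. It read 68.0, 92.1 and 35.5 in Bala arsenate, against 164, 82.3 and 76.5 in Bala control, and the groups overlapped. In Azucena it read 22.5, 33.4 and 34.8 with arsenate, against 150.0, 168 and 98.3 without, and every arsenate array was below every control. OsNAC2 changed by -2.11 ± 0.36 on the log2 scale in Azucena, a 4.32-fold fall, and its change of -0.72 ± 0.36 in Bala did not pass. Single experiments gave -1.24, 0.16 and -1.06 in Bala and -2.63, -2.26 and -1.44 in Azucena. The Azucena call held in all 12 fits without 1 array and was lost without experiment 1 (limma adjusted p = 0.0583) or 2 (0.0708). With arsenate OsNAC2 averaged 65.2 ± 28.4 in Bala and 30.2 ± 6.73 in Azucena (SD, n = 3 each), and the lowest Bala array (35.5) was just above the highest of Azucena (34.8). This difference of 0.98 ± 0.36 on the log2 scale did not pass, and without Azucena arsenate 3 it was 1.35 and did (limma adjusted p = 0.0402).

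For OsNAC7 the 2 probe sets differed. The one with the higher mean, which by its suffix can match several transcripts, read 15.5, 19.7 and 16.2 in Bala arsenate, against 35.1, 38.4 and 55.5 in Bala control. It read 28.9, 38.4 and 19.0 in Azucena arsenate, against 32.2, 25.5 and 19.0 in Azucena control. The Bala groups did not overlap, and the Azucena groups did. Its log2 change was -1.21 ± 0.29 in Bala, a 2.31-fold fall, and 0.14 ± 0.29 in Azucena, which did not pass. The Bala call was lost without any single Bala arsenate array or without Bala control 3, with a limma adjusted p of up to 0.117. The other probe set of OsNAC7, left out by the filter, read 5.7, 7.6 and 2.5 in Bala arsenate, against 6.5, 4.0 and 5.0 in Bala control, and 10, 13.2 and 11.8 in Azucena arsenate, against 3.2, 0.5 and 4.1 in Azucena control. In a fit with no filter its log2 change was -0.03 ± 0.39 in Bala and 1.64 ± 0.39 in Azucena. In Bala this other probe set gave -0.14, 0.67 and -0.63 in experiments 1, 2 and 3, so it had no clear direction there. With no filter, the Bala fall on the probe set with the higher mean did not pass. The change that passed was in Bala on that probe set with the filter and, with no filter, in Azucena on the other. Signals of 0.5 to 13.2 lie around the array medians or below them, so the size of that log2 change rests on the constant added.

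OsMPH1, the MYB gene that rose, read 79.4, 124 and 52.3 in Bala arsenate, against 17.2, 30.8 and 11.4 in Bala control. In Azucena it read 15.2, 36.0 and 67.3 with arsenate, against 10, 10.6 and 0.7 without. In both varieties all arsenate arrays lay above all controls. The log2 change was 2.24 ± 0.62 in Azucena, a 4.74-fold rise, and 2.01 ± 0.62 in Bala, which did not pass although the 3 experiments gave 2.08, 1.94 and 2.01. In Azucena the experiments gave 0.52, 1.58 and 4.63, and the last rests on the control signal of 0.7, which is below the constant of 2.1 added before the log. The Azucena call was lost without Azucena control 3 (log2 change 1.57, limma adjusted p = 0.111), Azucena control 2 (0.0855), Azucena arsenate 2 (0.0635) or Bala arsenate 1 (0.0511). The Bala change passed without Azucena arsenate 1 (limma adjusted p = 0.0474), Azucena arsenate 3 (0.00735) or Azucena control 3 (0.0446), each of which left the Bala change at 2.01 and altered the spread that all groups share. The mean signal was higher in Bala than in Azucena with arsenate (85.4 ± 36.4 and 39.5 ± 26.2, SD, n = 3 each) and without (19.8 ± 9.96 and 7.1 ± 5.55), and neither difference passed. The difference with arsenate was 1.21 ± 0.62, and without Azucena arsenate 3 it was 2.12 and passed (limma adjusted p = 0.00828), as did that without arsenate (1.44, limma adjusted p = 0.0213).

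MYBAS1 read 756, 523 and 941 in Bala arsenate, against 927, 1473 and 1619 in Bala control. In Azucena it read 538, 576 and 631 with arsenate, against 997, 849 and 1379 without. The Bala groups overlapped through arsenate 3 and control 1, and the Azucena groups did not overlap. The log2 change was -0.86 ± 0.24 in each variety, a 1.81-fold fall in both, and the SE was as large for both since the fit pools the spread. The Bala call held in 1 of 12 fits without 1 array, that without Bala control 1, with a limma adjusted p of up to 0.164 in the other 11, where the smallest log2 change was -0.64, without Bala control 2. The Azucena call was lost without any single Azucena array, with a limma adjusted p of up to 0.116. Without the experiment as a block neither call held (limma adjusted p = 0.0815 in Bala and 0.0576 in Azucena).

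The related gene myb17 read 445, 261 and 450.4 in Bala arsenate, against 397, 714 and 725 in Bala control, and the groups overlapped. In Azucena it read 148.5, 167 and 240.4 with arsenate, against 458, 378 and 449 without, with no overlap. The log2 change was -1.22 ± 0.28 in Azucena, a 2.34-fold fall, and -0.65 ± 0.28 in Bala, which did not pass. The Azucena call was lost without Azucena arsenate 1 or 2 or Azucena control 1 or 2, with a limma adjusted p of up to 0.0802. With arsenate myb17 was higher in Bala, where all 3 arrays lay above those of Azucena (385 ± 108 and 185 ± 48.6, SD, n = 3 each), a log2 difference of 1.04 ± 0.28 that passed. That call held in 3 of 12 fits without 1 array, those without Bala arsenate 2 or Bala control 1 or 2, and the limma adjusted p reached 0.191, without Bala arsenate 1. Without arsenate the difference was 0.47 ± 0.28 and did not pass.

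The calls of OsNAC4, OsMPH1, MYBAS1 and myb17 in Azucena, of OsNAC7 and MYBAS1 in Bala, and of myb17 between the varieties with arsenate held in none of the 3 fits that left out 1 experiment. In those fits the limma adjusted p reached 0.185 for OsNAC4, 0.170 for OsMPH1, 0.156 for OsNAC7 and 0.344 in Bala and 0.165 in Azucena for MYBAS1. For myb17 it reached 0.107 in Azucena and 0.222 between the varieties.

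**Figure D2:**
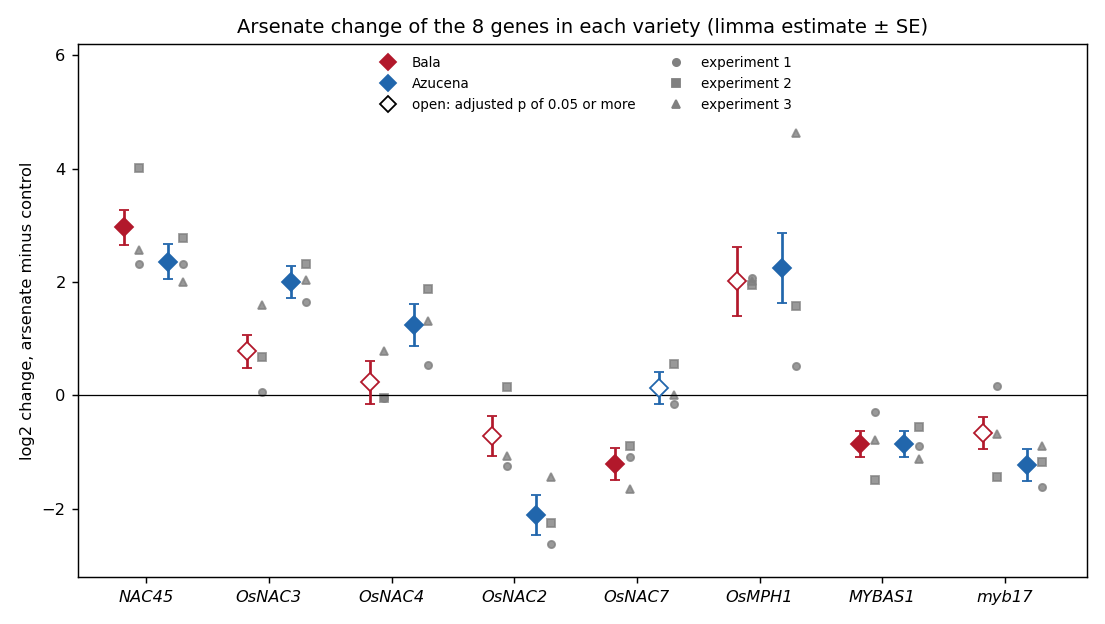
Log2 change with arsenate of the 8 genes in Bala and Azucena, as the limma estimate with a bar of 1 SE on each side, with the values of the 3 experiments as grey symbols beside it. NAC45 is at 2.97 and 2.36, OsNAC2 is at -0.72 in Bala and -2.11 in Azucena, and open symbols mark changes with an adjusted p of 0.05 or more.

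Averaged over both varieties, NAC45 (2.67 ± 0.22), OsNAC3 (1.39 ± 0.20) and OsMPH1 (2.13 ± 0.44) rose and OsNAC2 (-1.41 ± 0.25), MYBAS1 (-0.86 ± 0.17) and myb17 (-0.94 ± 0.20) fell. All 6 of these calls held in the 12 fits without 1 array. Without experiment 2 the averaged change did not pass for MYBAS1 (limma adjusted p = 0.0553), OsMPH1 (0.0654) or myb17 (0.0906), nor without experiment 1 for OsNAC2 (0.0517). Over all genes 19.9% rose and 14.4% fell in this comparison. OsNAC4 (0.74 ± 0.27) and OsNAC7 (-0.54 ± 0.20) did not pass. OsNAC4 passed without Bala control 2 (limma adjusted p = 0.0322) or Azucena control 1 (0.0396).

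Whether the 2 varieties differ in their arsenate change was tested as the difference of the changes (Bala minus Azucena). By limma none of the 8 genes passed, against 0.0703% of all genes (11 of 15638), so none of the changes above is shown to be particular to 1 variety. At an unadjusted p below 0.05 there were 3 of the 8, OsNAC2, OsNAC3 and OsNAC7, against 9.65% of all genes. The difference was 1.39 ± 0.51 for OsNAC2, -1.23 ± 0.41 for OsNAC3 and -1.34 ± 0.41 for OsNAC7, on the probe set with the higher mean. It was 0.00 ± 0.33 for MYBAS1, 0.57 ± 0.40 for myb17, 0.60 ± 0.44 for NAC45, -0.23 ± 0.87 for OsMPH1 and -1.01 ± 0.53 for OsNAC4. Between the varieties, myb17 was the 1 member that passed with arsenate, against 4.82% of all genes that were higher in Bala, and OsNAC3 the 1 that passed without, against 5.13%. No member was called lower in Bala, against 6.65% of all genes with arsenate and 7.04% without.

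Over the 12 arrays, 2 pairs of members read alike. MYBAS1 and myb17 had a Pearson r of 0.90 between their log2 values, and 0.85 after each group's mean was taken out. OsNAC3 and OsNAC4 had 0.89, and 0.82 after that step. The 4 lowest arrays of both OsNAC3 and OsNAC4 were the 3 Azucena controls and Bala control 3. MYBAS1 ran against NAC45 (-0.88, and -0.71 within groups). OsNAC2 and MYBAS1, which both fell in Azucena, had 0.45 over all arrays but -0.86 within groups. These are descriptions over 12 arrays that fall into 4 groups and share their experiments.

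**Figure D3:**
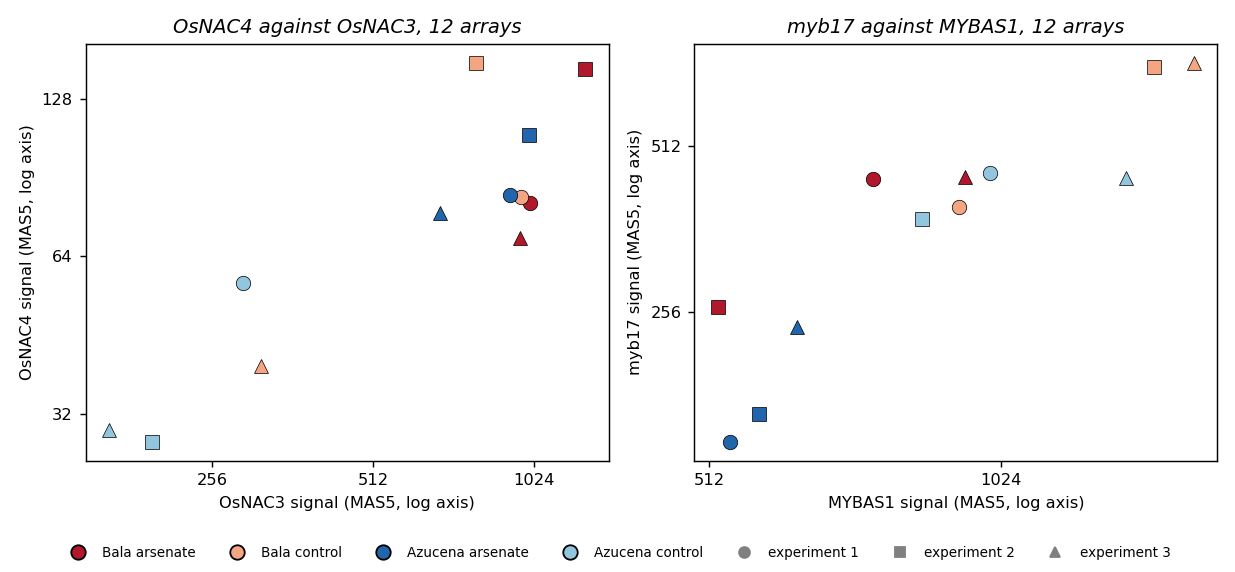
Signal of OsNAC4 against OsNAC3 (left) and of myb17 against MYBAS1 (right) on the 12 arrays, with log axes, 1 colour per group and 1 symbol per experiment. Azucena controls sit at the low end for OsNAC3 and OsNAC4, and Azucena arsenate arrays at the low end for myb17.

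The green tissue marker CAB2R moved with some members. Its r with MYBAS1 was 0.83 over the 12 arrays and 0.80 within groups, and with myb17 it was 0.75 and 0.41. With OsNAC2 it was 0.19 over all arrays and -0.84 within groups, and with OsMPH1 -0.35 and -0.76. With NAC45 it was -0.58 and -0.51, with OsNAC3 -0.21 and -0.50, and with OsNAC4 -0.25 and -0.50. With OsNAC7 it was 0.19 and -0.22. The actin 3' to 5' ratio had an r of 0.70 with NAC45 over the arrays and -0.41 within groups, of -0.73 and -0.47 with OsNAC2, and of -0.41 and 0.72 with MYBAS1. The GAPDH ratio had an r of -0.78 with myb17 over the arrays. A fit added after the arrays had been seen left out Azucena control 3 and Bala arsenate 3, where CAB2R stood apart. In that fit the log2 change of MYBAS1 was -0.94 in Bala and -0.77 in Azucena, and neither passed (limma adjusted p = 0.125 and 0.131). For myb17 it was -1.36 in Azucena (limma adjusted p = 0.0506), for OsNAC4 1.4 (0.101) and for OsMPH1 1.44 (0.133), and OsNAC7 in Bala was at -1.21 (0.106). The changes of NAC45 in both varieties (3.08 and 2.47) and of OsNAC3 (2.15) and OsNAC2 (-2.29) in Azucena still passed. On the arrays left, CAB2R was lower on every arsenate array than on every control of the same variety. In Bala, the array left out was the one with arsenate that overlapped with the controls. The fit therefore cannot part green tissue from arsenate, and the part of green tissue in these changes was not tested.

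For each member the named genes with the most similar profile were taken, as the 2 with the highest Pearson r over the 12 arrays among 2224 named genes. NAC45 was nearest to OsPPT3, of the plastid phosphoenolpyruvate translocator family (0.96), and to RAB21, a dehydrin of water deficit (0.96), and after group means were taken out these were 0.39 and 0.76. OsNAC3 was nearest to the heat shock disaggregase CLPB1 (0.94) and to EL2, a cell cycle inhibitor (0.94), with 0.74 and 0.70 within groups. OsNAC4 was nearest to the defence factor OsWRKY71 (0.94) and to D-enzyme, a glucanotransferase (0.94), with 0.93 and 0.89 within groups. OsMPH1 was nearest to the receptor-like kinase CRK6 (0.94) and to the potassium transporter OsHAK5 (0.93), with 0.85 and 0.79 within groups. Of the genes that fell, OsNAC2 was nearest to OsGT4 (0.95) and the cystatin OC-III (0.94), with 0.89 and 0.76 within groups. MYBAS1 was nearest to ISP, the Rieske protein of chloroplasts (0.93), and to the calcium-dependent kinase CPK19 (0.92), with 0.75 and 0.83 within groups. myb17 was nearest to the cell wall invertase OsCIN4 (0.92) and to OsSAP15 (0.92), with 0.75 and 0.78 within groups. The values of OsNAC7 were lower, 0.81 with the growth-regulating factor OsGRF11 and 0.81 with the ovate family gene OsOFP8, with 0.55 and 0.72 within groups.

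Other named genes of both families mostly did not pass. Of 3 other NAC genes 2 were tested and none passed with arsenate in either variety, nor did any have an unadjusted p below 0.05 there. OsNAC5, a factor of abscisic acid and salt responses, averaged 1389 ± 208 in Bala arsenate and 1787 ± 938 in Bala control, and 1142 ± 306 in Azucena arsenate and 1032 ± 185 in Azucena control (SD, n = 3 each). Its log2 change was -0.20 ± 0.29 in Bala (limma adjusted p = 0.701) and 0.13 ± 0.29 in Azucena (0.786). OsNAC6, known from drought and root responses, changed by 0.38 ± 0.25 in Bala (limma adjusted p = 0.363) and -0.30 ± 0.25 in Azucena (0.424). NAC010 was left out by the filter. Of 8 other MYB genes, OsJAMyb, a jasmonate-responsive factor, fell in Bala and none passed in Azucena, on the probe set with the highest mean of each gene. A further probe set of MYBS2, a MYB factor of sugar responses, did pass in Azucena (0.96 ± 0.26, limma adjusted p = 0.0330), where it averaged 176 ± 11.8 with arsenate and 91.3 ± 22.6 without (SD, n = 3 each). The MYBS2 probe set with the highest mean was at 0.04 ± 0.24 there. OsJAMyb read 11.4 ± 5.98 in Bala arsenate and 79.6 ± 33.5 in Bala control, a log2 change of -2.61 ± 0.38 (limma adjusted p = 0.00383). In Azucena its log2 change was -0.59 ± 0.38 (limma adjusted p = 0.292). The median change of the 8 was -0.19 in Bala and -0.08 in Azucena, and the annotation names too few genes of either family for a statement on the family.

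Of 10 other stress transcription factors tested, 3 rose in each variety and none fell. OsHsf-25, annotated as a heat shock factor, rose by 2.74 ± 0.38 in Bala and 2.95 ± 0.38 in Azucena on the log2 scale (limma adjusted p = 0.00294 and 0.00154). Its annotation also carries the names ARD1 and OsIDI1, so what its probe sets read is not certain. OsDREB2B, a factor of drought and heat responses, rose by 1.10 ± 0.18 in Bala and 0.88 ± 0.18 in Azucena (limma adjusted p = 0.00632 and 0.0108). OsDREB2A passed in Azucena (0.85 ± 0.22) and OsHsf-11 in Bala (1.97 ± 0.53, limma adjusted p = 0.0454). Other probe sets of the same genes gave 0.87 ± 0.25 in Bala and 0.98 ± 0.25 in Azucena for OsHsf-25, and 1.03 ± 0.54 and 2.58 ± 0.41 in Bala for OsHsf-11. Of 14 stress effector genes (dehydrins and other LEA proteins, enzymes of proline and nicotianamine synthesis, catalases and a few others), 9 rose in Bala and 8 in Azucena and none fell. Their median log2 change was 2.80 in Bala and 2.93 in Azucena. The dehydrins RAB21, RAB16D and RAB16B and the LEA protein LEA19 had the smallest adjusted p of this list. RAB21 read 1134, 1884 and 1021 in Bala arsenate, against 9.0, 1.0 and 0.5 in Bala control, and 682, 247 and 132 in Azucena arsenate, against 0.7, 0.6 and 2.3 in Azucena control. RAB16B read 448, 415 and 29.7 in Bala arsenate, against 10.6, 10.8 and 0.7 in Bala control, and 584, 256 and 30.2 in Azucena arsenate, against 7.4, 2.3 and 1.5 in Azucena control. Many of these control signals are near or below the constant of 2.1, which then sets much of a log2 change, so no size is given for RAB21 and RAB16B. The log2 change of RAB16D was 5.29 ± 0.53 in Bala and 3.61 ± 0.53 in Azucena, and that of LEA19 was 2.94 ± 0.40 and 4.05 ± 0.40. The list's medians include such low control signals. These lists were drawn up with earlier results on dehydrins and heat shock genes of these arrays known.

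**Figure D4:**
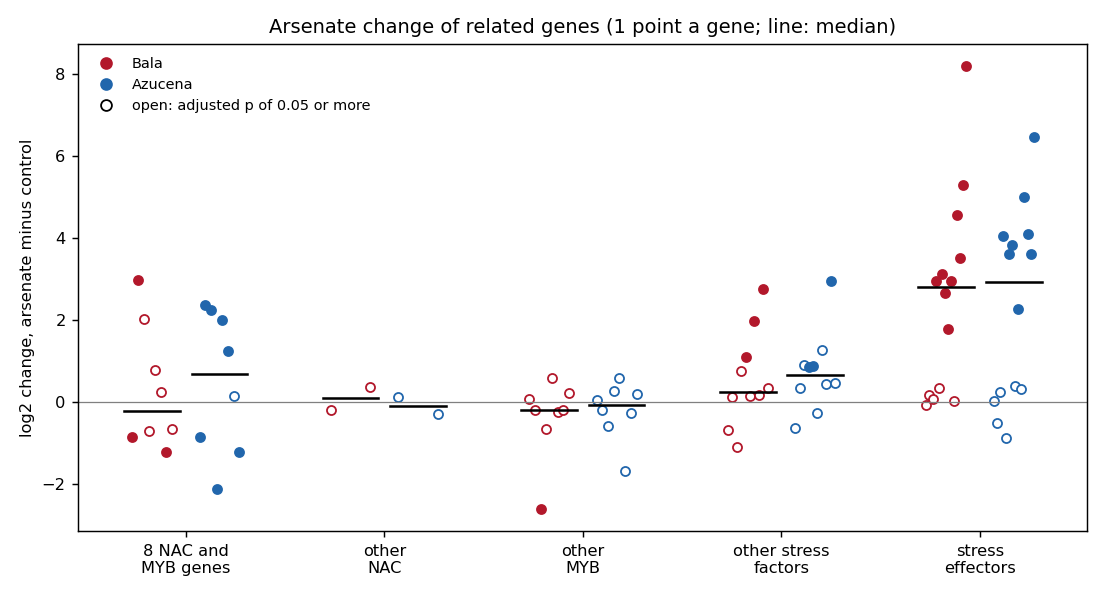
Log2 change with arsenate in Bala and Azucena of the 8 NAC and MYB genes and of the related lists, with 1 point per gene tested, a line at the list's median and open points for an adjusted p of 0.05 or more. The stress effectors have medians of 2.80 and 2.93, and OsJAMyb at -2.61 is the filled point among the other MYB genes.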

How the data were processed

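Roots of 4 pooled plants per sample (100 mg) gave RNA for 12 Affymetrix rice arrays, 3 in each of 4 groups of variety and arsenate. The deposited values are linear intensity signals made by the authors with MAS5, per the submitters' processing notes; its version and scaling target are not given in the sources used here. They were used as log2(signal + 2.1), where 2.1 is the 25th percentile, after 123 control probe sets and probe sets with a mean signal of 9.4 or less were left out. Group means with the experiment as a block were fitted with limma 3.58.1 in R 4.3.3 (6 residual and 2.85 prior degrees of freedom). P-values were adjusted by Benjamini-Hochberg over 28461 probe sets for each of 6 contrasts, at a threshold of 0.05. The experiment is a block because, per the series' design, the 4 samples of an experiment were harvested together. Residuals of arrays of the same experiment had a median r of 0.13 (11 of 18 pairs above 0.1), and those of other pairs -0.04 (7 of 36).

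The fit was run on simulated arrays with normal noise and known changes in Azucena arsenate, as a check of the code only. Those arrays held no differences in RNA integrity or green tissue, so the check does not bear on these. Genes were named from the platform annotation and RefSeq (assembly ASM3414082v1): 22436 probe sets had 1 gene, 95 several and 34727 none. A gene is represented by its probe set with the highest mean signal. OsNAC2 shares the synonym NAC4 with OsNAC4 and was matched by its own name. The members, gene lists and tests were chosen with earlier results of these data known. Genes named are all members, the 2 closest named genes of each, other NAC and MYB genes that passed with arsenate in either variety, and up to 4 genes per further list with the smallest adjusted p. The 3 other NAC genes, none of which passed, were named after their values were seen. Alternatives were other pseudocounts, filters and scalings, no block, mean-variance trend, fits of only the groups compared, and fits without each array or experiment. No sequences are shown.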

Additional observations from a re-analysis of the deposited data

How the results depend on the processing

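Over 48 results of the 8 genes (8 genes in 6 contrasts) and 1226 alternatives, 1098 kept their side of the threshold, 109 lost a call, 19 gained one and none of the called changes turned its sign. The fit with no block, and fits without an array of a group not compared, leave the log2 change as it was. No sign could turn in these. Only the 18 called changes could lose a call, and most of the 48 results were not called in the main fit. Of 18 called changes 11 held in every fit without 1 array. In all 3 fits without 1 experiment, only the calls of NAC45 in Bala, in Azucena and averaged, and of OsNAC3 averaged, held. Leaving out 1 array or 1 experiment gave 1 to 3 calls of the 8 in Bala, 1 to 7 in Azucena, 3 to 7 averaged over the varieties, 0 for the difference of the changes, and 0 to 2 between the varieties both with and without arsenate. The shares of all genes in these leave-out fits are not given here, so nothing about the members is read from these counts. With no filter there were 1 call in Bala, 3 in Azucena and 0 between the varieties with arsenate. With only the groups compared in the fit there were 4 in Azucena and 0 between the varieties with arsenate, and with a pseudocount at the 5th percentile 0 again in that variety comparison. When only the Bala groups were fitted, MYBAS1 and OsNAC7 lost their Bala calls, NAC45 kept its call and OsMPH1 gained one. OsMPH1 in Bala also passed under a mean-variance trend, or when 9.4 was the constant added before the log. The Bala calls other than that of NAC45 thus depended on the fit. With arrays centred on their median there were 0 between the varieties with arsenate and 2 without (OsNAC3 and OsNAC4). This centring put the median change of all genes at -0.08 in Bala (0.08 uncentred) and that of the difference at -0.29 (-0.04). Without Azucena control 3 and Bala arsenate 3, a fit chosen after seeing the data, there were 1 in Bala, 3 in Azucena and 0 between the varieties with arsenate. Fewer arrays enter some of these fits, and the fit with no filter holds 57258 probe sets instead of 28461. What caused the shifts in calls was not tested. Without the experiment as a replicate block there were 2 calls in Bala, 5 in Azucena, 6 on average, 0 for the difference and 1 each between the varieties with and without arsenate; MYBAS1 in both varieties (limma adjusted p = 0.0815 and 0.0576 in Bala and Azucena) and OsNAC4 in Azucena (0.0789) lost their call. A filter at a mean of 49.1 leaves out OsNAC7 and OsMPH1, so it gives no value for them. OsMPH1 in Azucena controls and the other OsNAC7 probe set lie below the filter on mean signal. Of all genes, 12.7% passed in Bala, 22.7% in Azucena, 34.3% on average, 11.5% and 12.2% between the varieties with and without arsenate and 0.0703% for the difference. With no filter these were 5.34%, 10.2%, 20.0%, 6.96%, 7.35% and 0.0256%. With only the groups compared they were 5.4% in Bala, 13.1% in Azucena and 7.01% between the varieties with arsenate. Without Azucena control 3 and Bala arsenate 3 they were 6.97% in Bala, 15.1% in Azucena, 7.48% between the varieties without arsenate and 0.00639% for the difference. Other settings put the share for the difference between 0.0448% and 0.403%. It was 0.147% with no block and 0.198% with arrays centred on their median. The shares of the other comparisons under these settings are not given here, so nothing is read from the counts of members there.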
